A study of Mus musculus with 10 samples.

Results

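The genes described here encode 10 enzymes of glycolysis or copies of them: *Hk1*, *Hk2*, *Gpi1*, *Pfkl*, *Aldoa*, *Gapdh*, *Pgk1*, *Eno1*, *Eno1b*, and *Pkm*. They were taken by name from an expression table of 55426 genes of the mouse thoracic aorta, and the list was drawn up with the comparison of the 2 genotypes below already in view. The 10 names match 11 rows, because a second gene also carries the name *Aldoa* and was listed at 0 to 0.39 TPM over the 6 aortas. The other 10 rows are among the 15668 genes whose TPM averaged 0.5 or more over the aortas. TPM, a share of all transcripts in an aorta, is a level corrected for transcript length, so levels of different genes may be compared.

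Glycolysis splits glucose into pyruvate in the cytosol and yields ATP and NADH on the way. Hexokinase traps glucose in the cell, phosphofructokinase commits it to the pathway, and pyruvate kinase makes pyruvate, while the other enzymes catalyze near-equilibrium steps between them. Vascular smooth muscle is known for making lactate from glucose even when oxygen is plentiful. *Eno1* encodes α-enolase, which turns 2-phosphoglycerate into phosphoenolpyruvate, and *Eno1b* is a copy of it that is known as a retrogene.

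The RNA-Seq compared thoracic aortas of 3 control mice with those of 3 Prdm16SMKO mice, in which PRDM16, a zinc finger transcription regulator, is deleted in vascular smooth muscle cells. By the labels, both groups carried floxed *Prdm16* alleles (Prdm16f/f), and Prdm16SMKO mice also carried SMMHC-CreERT2, a tamoxifen-inducible Cre under the promoter of smooth muscle myosin heavy chain, so an effect of Cre and one of the deletion cannot be told apart by the labels. The transgene sits on the Y chromosome, so these mice are male, and the background was C57BL/6J. Tamoxifen was given at 75 mg/kg/day for 5 days from 8 weeks of age, with a washout of 2 weeks. The age at collection, the time of day, and the treatment of the sequenced controls were not given in the sources used here. As controls, the methods name both floxed mice and mice with Cre, without saying which were sequenced. PRDM16 ChIP-Seq came from wild-type primary vascular fibroblasts, not smooth muscle cells, which were given a lentivirus for PRDM16 with a Flag tag or for the empty vector (infection of 48 hours, then 1 week in puromycin at 2 μg/mL). Each condition had 1 anti-Flag library, so no peak value has a replicate.

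The targeted gene checks the genotype labels. *Prdm16* measured 56.07, 47.56, and 40.28 TPM in controls and 23.31, 33.32, and 23.42 TPM in Prdm16SMKO aortas, which did not overlap, and its mean was 55.6% of the control mean (adjusted p = 0.0725 with limma). All 6 smooth muscle markers were expressed, with a summed level of 20649 to 24074 TPM in controls and 13730 to 17733 TPM in Prdm16SMKO aortas. Median ratio rescaling shifts all genes: the median log2 difference of the 15668 genes (Prdm16SMKO minus control) was −0.12 as deposited and 0.000241 after it, and members are read against that shift. Mitochondrial genes took 14.7% to 26.5% of all TPM, and the depth of each library is unknown. Whole tissue was sequenced, so fewer cells of a type and less RNA per cell cannot be told apart.

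*Eno1* lies on the plus strand at chr4:150236721-150248879 (GRCm38), and *Eno1b* is annotated as a protein-coding gene on another chromosome. Both coding sequences have 1305 bases, and they differ at 8 positions, all at the third base of a codon, without a gap (99.39% identity). The first difference is at coding position 726 and the last at 1233, so reads from the coding bases before 726 are the same for both genes. Of the 1155 possible reads of 151 bases within the *Eno1* coding sequence, 672 (58.2%) occur unchanged in *Eno1b*, and over the whole *Eno1* transcript of 2027 bases the share is 48.3%. These are shares of single reads. The libraries held read pairs, and what a mate adds was not counted. The stretches of 30 bases below, from the plus strand of *Eno1*, are shown because a single read within the coding sequence differs between the genes only where it covers such bases. Capitals mark the bases at which *Eno1b* differs. The differences at coding positions 726 and 816 lie outside these stretches and are not shown.
Eno1 coding bases 734 to 763, chr4:150246636-150246665: atgtggctgcctcCgaGttctacaggtctg
Eno1 coding bases 1037 to 1066, chr4:150247622-150247651: agatcggctcTgtgaccgaAtccctgcagg
Eno1 coding bases 1214 to 1243, chr4:150248098-150248493 with the intron removed: ccaagtacaaTcagatcctCagaattgagg

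*Eno1* was lower and *Eno1b* higher in every Prdm16SMKO aorta than in any control, and their sum hardly differed between the groups. *Eno1* measured 121.3, 142.98, and 114.61 TPM in controls 1, 2, and 3 and 46.06, 47.19, and 66.03 TPM in Prdm16SMKO aortas 1, 2, and 3. The highest of the latter was well under the lowest control. *Eno1b* measured 0.91, 1.99, and 0.68 TPM in controls and 67.65, 66.23, and 83.4 TPM in Prdm16SMKO aortas. The lowest Prdm16SMKO value was 33.3 times the highest control value. Group means went from 126 ± 14.8 to 53.1 ± 11.2 TPM for *Eno1* (SD, n = 3 each, 42.0% of control) and from 1.19 ± 0.699 to 72.4 ± 9.53 TPM for *Eno1b* (60.7 times control). On the scale of log2(TPM + 0.1), these are differences of −1.26 (SE 0.16) and 5.93 (SE 0.32), given as a description because the genes were chosen on this contrast.

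Added together in each aorta, *Eno1* and *Eno1b* came to 122, 145, and 115 TPM in controls and 114, 113, and 149 TPM in Prdm16SMKO aortas. The groups overlapped throughout, and Prdm16SMKO aorta 3 was the highest of all 6. The mean sum was 127 ± 15.5 TPM in controls and 126 ± 20.7 TPM in Prdm16SMKO aortas, 98.5% of control, with a log2 difference of −0.03 (SE 0.165) that is smaller than the spread between aortas. *Eno1b* made up 0.745%, 1.37%, and 0.59% of this sum in controls and 59.5%, 58.4%, and 55.8% in Prdm16SMKO aortas. The share was thus alike within each genotype and far apart between them. RSEM, named in the submitters' processing notes without a stated role, divides reads that match several transcripts among them by estimated abundance, so how the counting split reads between these near-identical genes is uncertain, and its part in the opposite differences was not tested. *Eno1b* lies on chromosome 18, and a further copy, the pseudogene *Gm4735*, on chromosome 2. *Gm4735* is 99.62% identical to *Eno1* over nearly all of its coding sequence, and measured 3.67, 1.63, and 1.2 TPM in controls and 3.97, 2.02, and 3.58 TPM in Prdm16SMKO aortas. With it, the sum ran from 116 to 147 TPM in controls and from 115 to 153 TPM in Prdm16SMKO aortas. *Gm5855*, the remaining copy, was listed at 0 in all 6 aortas.

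**Figure D1:**
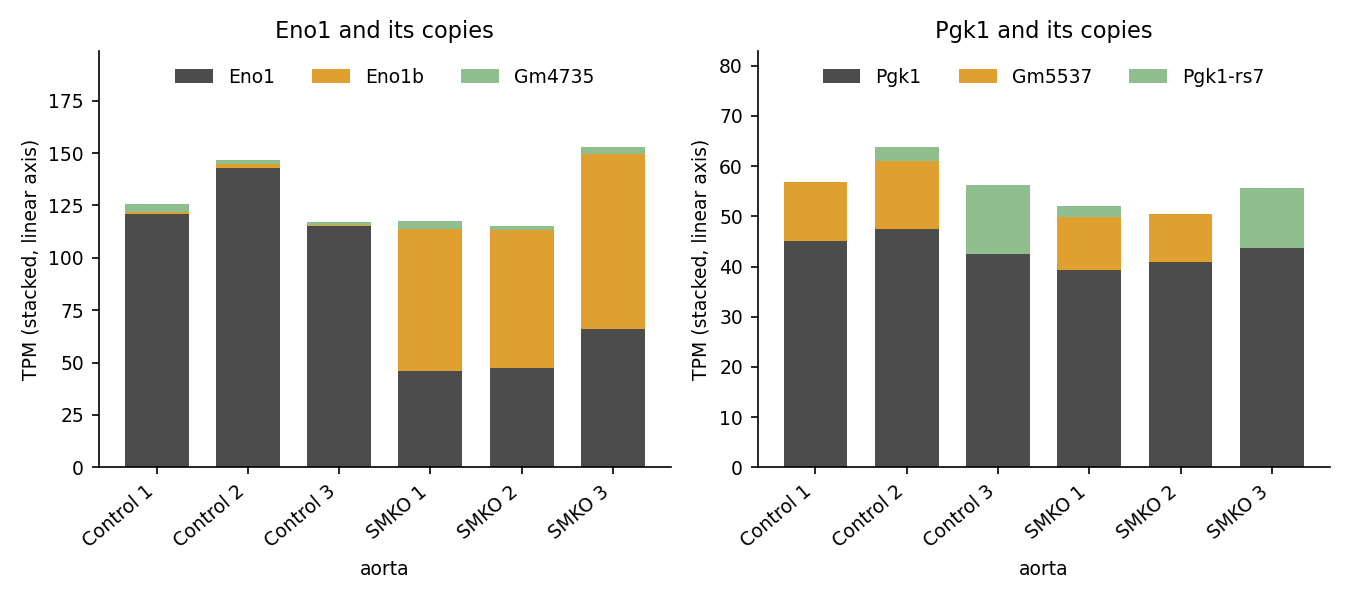
TPM of *Eno1* (left) and *Pgk1* (right) with their near-identical copies, stacked for each of the 6 aortas on linear axes; SMKO stands for Prdm16SMKO. *Eno1b* makes up 55.8% to 59.5% of the sum of *Eno1* and *Eno1b* in Prdm16SMKO aortas and at most 1.37% in controls, while the total heights overlap; in the right panel *Gm5537* is listed at 0 in control 3 and Prdm16SMKO 3, where *Pgk1-rs7* is highest.

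The remaining 8 members differed little. Of these, 7 had a negative log2 difference, and the median was −0.17, with a range from −0.20 to 0.14, beside a median of −0.12 over all genes tested. *Gpi1* and *Pkm* were lower in every Prdm16SMKO aorta than in any control, and none was higher without overlap. Over all genes tested, 14.9% were lower and 4.08% higher without overlap, and nothing is read from the members' count, since the contrast was known when they were listed.

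Hexokinases bring glucose into the pathway by phosphorylating it. *Hk1*, the widely expressed form, measured 35.02, 30.38, and 30.59 TPM in controls and 36.99, 39.38, and 29.72 TPM in Prdm16SMKO aortas, and was the only one of the 8 with a positive difference as deposited (0.14, SE 0.14), while *Gapdh*, *Pgk1*, and *Pkm* were positive too after quantile normalization. The *Hk1* difference was 0.0544 without Prdm16SMKO aorta 2, 0.257 without Prdm16SMKO aorta 3, 0.255 (SE 0.0819) after median ratio rescaling, and 0.278 after quantile normalization. *Hk2*, the form typical of muscle and fat and known to respond to insulin, measured 16.46, 17.34, and 13.47 TPM against 13.39, 14.78, and 13.21 TPM, a log2 difference of −0.18 (SE 0.15). Both genes overlapped between the groups. *Hk1* was above *Hk2* in all 6 aortas.

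*Gpi1* encodes glucose-6-phosphate isomerase, which makes fructose 6-phosphate. It measured 306.03, 289.23, and 283.04 TPM in controls and 241.14, 272.52, and 253.62 TPM in Prdm16SMKO aortas, 87.4% of the control mean, and the groups did not overlap. *Pfkl*, the liver-type subunit of phosphofructokinase, measured 21.54, 24.7, and 24.64 TPM against 18.8, 21.76, and 22.28 TPM. Here 2 of the Prdm16SMKO aortas lay above the lowest control. The log2 differences were −0.20 (SE 0.10) for *Gpi1* and −0.17 (SE 0.13) for *Pfkl*.

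*Aldoa*, muscle-type aldolase, splits the hexose bisphosphate into triose phosphates. It measured 441.28, 467.18, and 392.66 TPM in controls and 372.31, 369.41, and 395.28 TPM in Prdm16SMKO aortas, overlapping at control 3 only. *Gapdh*, which oxidizes glyceraldehyde 3-phosphate and is widely used as a reference gene, measured 553.47, 533.12, and 484.1 TPM against 450.4, 508.55, and 455.67 TPM. It overlapped between the groups because Prdm16SMKO aorta 2 was above control 3. Their log2 differences were −0.19 (SE 0.11) and −0.15 (SE 0.11).

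*Pgk1*, phosphoglycerate kinase, makes the first ATP of the pathway. It measured 45.12, 47.44, and 42.46 TPM in controls and 39.44, 40.92, and 43.63 TPM in Prdm16SMKO aortas. Only Prdm16SMKO aorta 3 reached the control range, and the log2 difference was −0.12 (SE 0.11), the same as the median of all genes. *Pkm*, which encodes the muscle forms of pyruvate kinase, measured 339.09, 318.96, and 312.47 TPM against 288.16, 304.23, and 273.4 TPM. These groups did not overlap, and the log2 difference was −0.17 (SE 0.10).

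**Figure D2:**
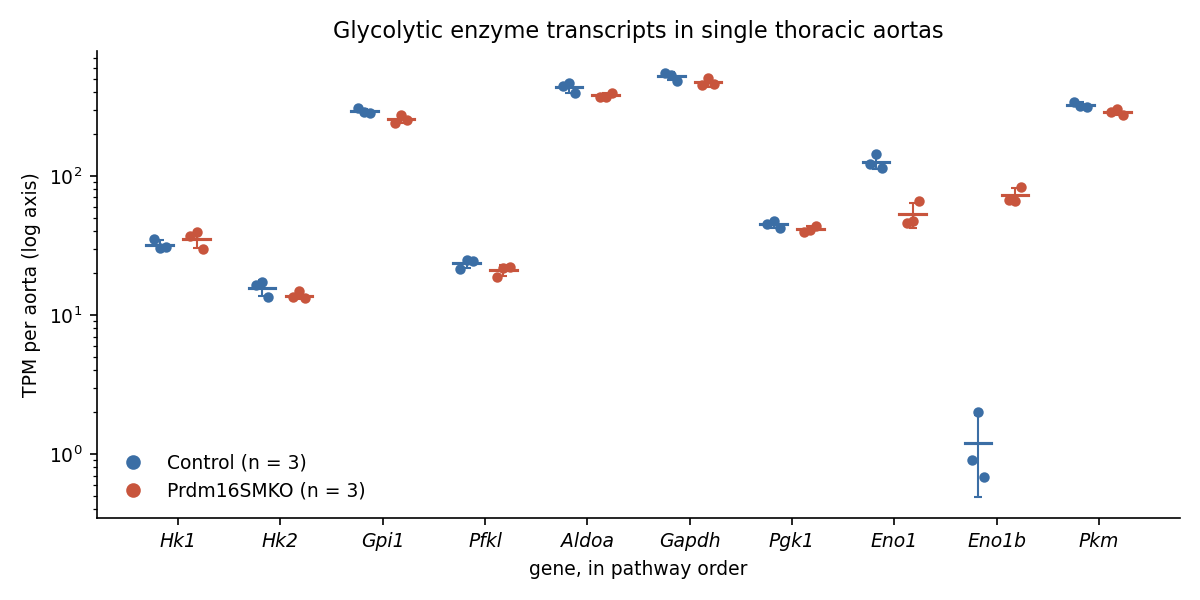
TPM of the 10 genes in each aorta on a log axis, controls in blue and Prdm16SMKO in red (n = 3 each), in pathway order; points are aortas, horizontal lines are means, and error bars are SD. The mean of *Eno1* goes from 126 to 53.1 TPM and that of *Eno1b* from 1.19 to 72.4 TPM, while the group means of the other 8 genes stay close together.

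**Figure D3:**
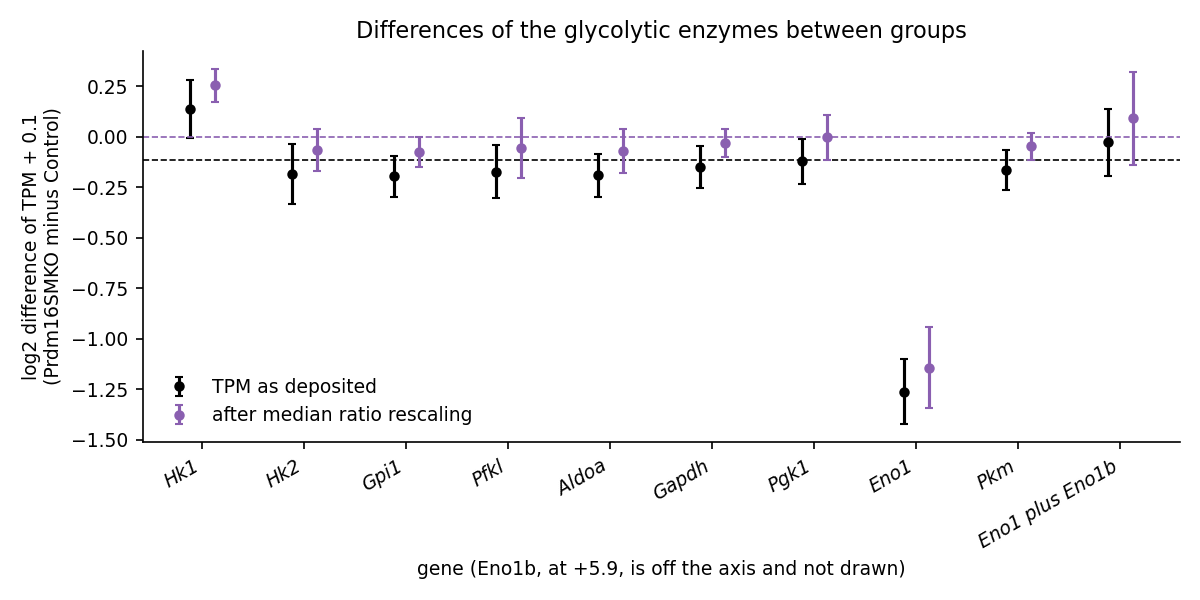
Log2 difference of TPM + 0.1 (Prdm16SMKO minus control) with its SE for 9 members and for the sum of *Eno1* and *Eno1b*, as deposited (black) and after rescaling each aorta by its median ratio (purple); dashed lines mark the median of all genes tested under each scaling. *Eno1* lies far under the dashed line of its own scaling and *Hk1* somewhat over it, the others lie near it, and *Eno1b*, at 5.93, is outside the axis.

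The order of the levels was the same in both groups except for the enolases. In controls it ran *Gapdh* (524 TPM), *Aldoa* (434), *Pkm* (324), *Gpi1* (293), *Eno1* (126), *Pgk1* (45.0), *Hk1* (32.0), *Pfkl* (23.6), *Hk2* (15.8), and *Eno1b* (1.19), with no overlap between neighbors over the 3 aortas. In Prdm16SMKO aortas *Eno1b* (72.4 TPM) came next after *Gpi1*, followed by *Eno1* (53.1 TPM) and *Pgk1*. There, 2 pairs of neighbors came close: the lowest *Eno1b* value, 66.23 TPM, was just above the highest *Eno1* value, 66.03 TPM, and the lowest *Pkm* value, 273.4 TPM, just above the highest *Gpi1* value, 272.52 TPM. The 10 genes together made up 1699 to 1880 TPM in controls and 1574 to 1685 TPM in Prdm16SMKO aortas.

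Several other members have copies similar in sequence, for which shared reads were not counted. By a search for transcripts at least 95% identical over at least 50% of the coding sequence, *Gapdh* had 69 copies, *Eno1* 3, *Pgk1* 2, *Gpi1* 1, and *Hk1*, *Hk2*, *Pfkl*, *Aldoa*, and *Pkm* none. The *Gapdh* copies together measured 35.2 to 57.9 TPM in the 6 aortas, 6.86% to 9.48% of their sum with *Gapdh*. The 7 of them averaging 0.5 TPM or more were *Gm7336*, *Gm10359*, *Gm12671*, *Gm5069*, *Gm5559*, *Gm2606*, and *Gm12537*. The pair *Gm10359* and *Gm12671* had the same TPM in every aorta. *Gm1840*, the copy of *Gpi1*, averaged 1.19 TPM. The *Pgk1* copies traded places from aorta to aorta, not by genotype. *Gm5537* measured 11.72 and 13.61 TPM in controls 1 and 2 and 10.37 and 9.61 TPM in Prdm16SMKO aortas 1 and 2, and was listed at 0 in the other two. *Pgk1-rs7* measured 13.68 and 12.05 TPM in those, control 3 and Prdm16SMKO 3, and at most 2.83 TPM elsewhere. Their sum was steadier, at 11.7, 16.4, and 13.7 TPM in controls and 12.6, 9.61, and 12.1 TPM in Prdm16SMKO aortas. How reads were divided between these copies and *Pgk1* is uncertain as well.

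Summing all isozymes of a step, a grouping added after the values were seen, shows each step as a whole. The enolase step (*Eno1*, *Eno1b*, and the 3 other enolase genes) totaled 142, 159, and 135 TPM in controls and 136, 138, and 165 TPM in Prdm16SMKO aortas, a log2 difference of 0.01 (SE 0.11). *Eno1* was 86.7% of it in controls. The hexokinase step likewise overlapped, at 48.3 ± 3.73 against 49.5 ± 5.64 TPM. The phosphofructokinase step measured 180 ± 19.7 TPM in controls and 150 ± 23.8 TPM in Prdm16SMKO aortas (log2 −0.27, SE 0.16), and its main subunit was not the member *Pfkl* but *Pfkp*, 64.2% of the control total. The other 7 steps had log2 differences from −0.20 to −0.10, beside a median of −0.12 over all genes tested. Groups did not overlap at glucose-6-phosphate isomerase, phosphoglycerate mutase, and pyruvate kinase, the first and last being in effect the members *Gpi1* and *Pkm*. Over all single genes tested, 14.9% were lower without overlap, and nothing is read from the count of steps.

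**Figure D4:**
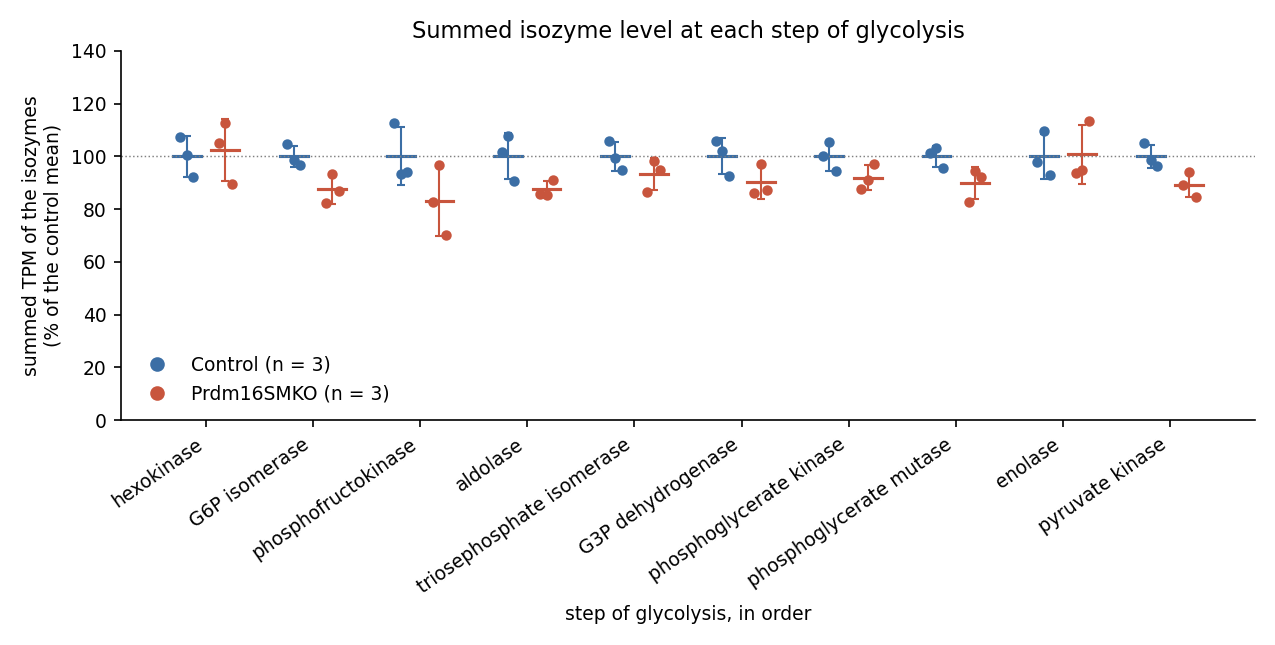
Summed TPM of the isozymes at each of the 10 steps of glycolysis, as a percent of the control mean, for 3 control (blue) and 3 Prdm16SMKO (red) aortas; points are aortas, horizontal lines are means, and error bars are SD. The enolase step lies at 101% of control and the hexokinase step at 102%, and the phosphofructokinase step, at 83.3%, has the lowest mean.

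Of 110 further genes of glucose metabolism, 89 were tested and 1 passed an adjusted p of 0.05 (limma, over all 15668 genes), beside 1.07% of all genes. That gene was *Epas1*, which encodes HIF-2α, a transcription factor stabilized when oxygen is low. *Epas1* measured 64.04, 70.25, and 65.78 TPM in controls and 111.33, 97.17, and 99.05 TPM in Prdm16SMKO aortas, a rise to 154% of control without overlap (log2 0.62, SE 0.11, adjusted p = 0.0384 with limma). The call is lost when any 1 aorta is left out (adjusted p from 0.0668 to 0.191 with limma), while the log2 difference stays between 0.557 and 0.656. By direction, the background was 0.389% called higher and 0.683% called lower, and limma called 0 of the 89 lower. At an unadjusted p under 0.05, 12 of the 89 were lower with limma, beside 9.45% of all genes tested. Of the 89, 69 had a negative log2 difference, 18 were lower and 3 higher without overlap, and their median was −0.14. That median and that share without overlap are beside −0.12 and 14.9% over all genes.

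The lists around the members were as follows, with adjusted p values from limma over all genes tested. Of the other glycolytic enzymes, 9 were tested and none was called; their median log2 difference was −0.25. *Tpi1*, triosephosphate isomerase, went from 119 ± 6.58 to 111 ± 7.11 TPM (adjusted p = 0.727, limma) and *Pfkp*, the platelet-type phosphofructokinase, from 135.58, 106.35, and 104.71 to 98.38, 117.6, and 77.56 TPM (adjusted p = 0.581, limma). Of the glucose transporters, 8 were tested and none was called, with a median of −0.01: *Slc2a4*, the insulin-responsive GLUT4, had a difference of 0.08 and *Slc2a1*, the basal GLUT1, of −0.09. Of the regulators, 12 were tested and *Epas1* alone was called, with a median of −0.15. *Txnip*, which restrains glucose uptake, went from 169 ± 12.6 to 194 ± 22.9 TPM (adjusted p = 0.547, limma).

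The routes that lead away from glycolysis and the hypoxia list held no gene called by limma. At an unadjusted p under 0.05, which 12.7% of all tested genes reached, limma gave 2 of the other glycolytic enzymes, 0 transporters, 0 gluconeogenic genes, 3 for lactate and pyruvate, 2 for pentose phosphate, 2 for glycogen, and 4 hypoxia-induced genes. For lactate and pyruvate, 19 genes were tested with a median of −0.14; *Ldha*, lactate dehydrogenase A, differed by −0.11 and *Mpc1*, a subunit of the mitochondrial pyruvate carrier, by −0.04. For the pentose phosphate pathway, 8 genes had a median of −0.23, with *Tkt*, transketolase, at −0.02 and *Taldo1*, transaldolase, at −0.22. For glycogen metabolism, 15 genes had a median of −0.27, with *Pgm5*, a phosphoglucomutase relative abundant in muscle adhesions, at 0.25 (adjusted p = 0.448 with limma, 0.0471 after quantile normalization) and *Pygb*, brain glycogen phosphorylase, at −0.32. For gluconeogenesis, 4 genes had a median of −0.14: *G6pc3*, a glucose-6-phosphatase, differed by −0.15 and *Pck1*, which is also strong in fat, by −0.44 with a wide SE of 0.59. For 14 hypoxia-induced genes outside glycolysis the median was −0.05, with *Egln1*, an oxygen sensor, at −0.19 and *Vegfa*, an angiogenic factor, at −0.04.

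Markers of other cell types varied between aortas beside these values. Of 7 brown adipocyte markers, 6 had a mean TPM of 0.5 or more, and limma called none. *Dio2* alone did not overlap between the groups, at 16.11 to 22.79 TPM in controls and 9.88 to 13.33 TPM in Prdm16SMKO aortas. Its adjusted p was 0.0845 with limma. The summed level of the 7 ran from 89.0 to 468 TPM in controls and from 107 to 413 TPM in Prdm16SMKO aortas. Control 2 and Prdm16SMKO 3 were the highest. Those same 2 aortas were the highest of their groups in *Eno1* and in *Eno1b*. Without both of them 120 genes were called, and across all alternatives the log2 difference stayed between −1.43 and −1.11 for *Eno1* and between 5.1 and 6.34 for *Eno1b*. Skeletal muscle markers, 5 of 9 at a mean of 0.5 or more, summed to 82.9 to 99.3 TPM in controls and 53.4 to 78.4 TPM in Prdm16SMKO aortas, and did not overlap. Most of each sum was *Casq1*, at 70.84 to 85.98 TPM in controls and 46.61 to 68.11 TPM in Prdm16SMKO aortas. *Casq1* was the only marker of this list lower without overlap, and the defining *Acta1*, *Myh1*, *Myh2*, and *Myh4* averaged under 0.5 TPM. For 6 erythroid markers the sums were 944 to 4621 and 762 to 2625 TPM, for 6 white adipocyte markers 362 to 1017 and 254 to 438 TPM, for 6 fibroblast markers 611 to 744 and 669 to 911 TPM, for 6 endothelial markers 90.9 to 114 and 65.5 to 140 TPM, and for 8 macrophage and leukocyte markers 53.9 to 74.5 and 41.5 to 72.6 TPM. Of the 6 smooth muscle markers, 4 were lower in Prdm16SMKO aortas without overlap, beside 14.9% of all genes tested. These 4 had an unadjusted p under 0.05 with limma, beside 9.45% of all genes tested that were lower at this level. By adjusted p, limma called 0 of the 6. Of the fibroblast markers, *Col14a1*, a fibril-associated collagen, was called higher, at 91.49, 66.05, and 63.94 TPM in controls and 148.99, 149.43, and 133.88 TPM in Prdm16SMKO aortas (log2 0.98, SE 0.15, adjusted p = 0.020 with limma). No marker was listed at 0 in all 6 aortas. The part of these cells in the members' levels was not tested.

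*Eno1* and *Prdm16* lie on the same chromosome, 4.07 Mb apart. Of 32 tested genes between them, limma called 0, with 6 at an unadjusted p under 0.05, beside 12.7% of all genes. Within 20 Mb of *Prdm16*, limma called 21 of 253 tested genes (8.30%), beside 1.07% of all genes, and 71 were at an unadjusted p under 0.05. Neither region was among the planned results. *Eno1* is counted in the 21, but it was chosen on this contrast, so nothing is read from its call.

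PRDM16 peaks lay in or near 7 of the 10 members. There were 12 such peaks among the 11271 of the PRDM16 library, of which 8 had their centre within 2 kb of an annotated RefSeq transcription start site (TSS), 2 lay elsewhere in a gene, and 2 within 5 kb of one. *Hk1*, *Hk2*, *Gpi1*, *Pfkl*, *Aldoa*, *Gapdh*, and *Pkm* had a promoter peak, 7 of 10 members, beside 43.3% of the 13157 tested genes with a RefSeq TSS and 49.4% of the 7022 of these with a mean TPM of at least 10. All 7 also had a peak that overlaps the gene itself, as did 39.3% of 15652 tested genes. The vector library, with 67 peaks in all, had none at a member promoter. *Eno1*, *Eno1b*, and *Pgk1* had no peak: the nearest was 134.8 kb downstream of *Eno1* (fold enrichment 7.03), 677.1 kb upstream of *Eno1b* (8.44), and 422.2 kb upstream of *Pgk1* (4.03).

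All 12 peaks were centered downstream of the member's nearest start site, and 11 had their summit there too. The summit of the *Hk1* peak lay on the upstream side (position −117 bp from the start). The 2 peaks deep within *Hk2* and the 2 beyond the ends of *Gpi1* and *Gapdh* are downstream by where they lie. The share over all PRDM16 peaks was not computed, so the count is not read as a trait of the members. The fold enrichment of the 12 peaks over the local background ran from 2.97 to 9.84 with a median of 6.15, beside 5.27 over all PRDM16 peaks. The strongest, in the first part of *Gapdh* at chr6:125164867-125165565, was 557 bp downstream of the start, with a fold enrichment of 9.84, higher than in 96.5% of all peaks. *Gapdh* had another promoter peak at 1625 bp (4.57) and 1 beyond its end (5.63). The *Hk1* peak, at chr10:62339680-62340820, was 171 bp downstream of an alternative start with a fold enrichment of 8.79, and its centre was only 16 bp from the start of the antisense gene *Hk1os*, so it cannot be given to one of them. The *Pkm* peak was the closest to a start, at 93 bp (7.03), followed by *Pfkl* at 198 bp (6.82), *Gpi1* at 508 bp (5.63), and *Aldoa* at 1650 bp (6.68). *Hk2* had the weakest promoter peak, 2.97 at 877 bp, and 2 stronger ones within the gene, 5.27 at 13668 bp and 8.79 at 22732 bp. The second *Gpi1* peak (3.41), beyond the end of the gene, lay 349 bp from the start of its neighbor *Pdcd2l*. With a narrow window that ends 100 bp downstream of the start and begins 1 kb upstream, only *Pkm* kept a promoter peak, beside 14.1% of genes.

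**Figure D5:**
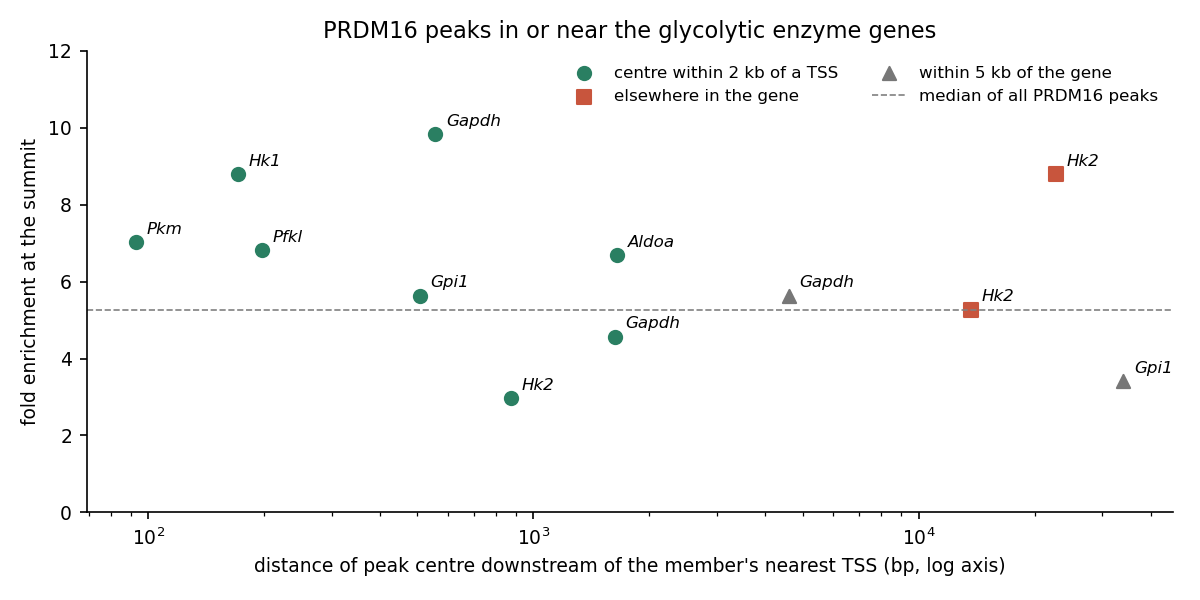
Fold enrichment at the summit of the 12 PRDM16 peaks in or near the members (1 library) against the distance of the peak centre downstream of the member's nearest start site, on a log axis; circles are promoter peaks, squares peaks elsewhere in the gene, triangles peaks within 5 kb of it, and the dashed line is the median of all PRDM16 peaks, 5.27. The highest point is *Gapdh* at 9.84, the lowest the *Hk2* promoter peak at 2.97.

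For 3 peaks the 101 bases around the summit are shown, given on the plus strand of GRCm38: both *Hk2* windows that mark the weakest and the strongest peak of this gene, and the *Aldoa* window. Capitals mark matches to the motifs searched on both strands, namely the E-box (CACGTG), the core of the hypoxia response element (ACGTG), which is also a part of that E-box, and the core of a GATA factor site (AGATAA).
Hk2 promoter, chr6:82773636-82773736: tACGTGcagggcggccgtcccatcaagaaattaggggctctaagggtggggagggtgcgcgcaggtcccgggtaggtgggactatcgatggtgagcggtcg
Hk2 intron, chr6:82751701-82751801: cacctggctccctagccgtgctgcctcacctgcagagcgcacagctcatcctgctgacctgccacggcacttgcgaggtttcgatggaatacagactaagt
Aldoa, chr7:126797490-126797590: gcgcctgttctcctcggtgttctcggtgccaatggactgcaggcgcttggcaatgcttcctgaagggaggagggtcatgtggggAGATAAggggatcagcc
Of the 12 member windows, 1 held ACGTG (the *Hk2* promoter), 1 held AGATAA (*Aldoa*), and 0 held CACGTG. Over the 11258 windows of all PRDM16 peaks the shares were 6.96%, 1.98%, and 1.71%. The median GC content was 59.9% in the member windows and 64.4% in all windows. A match is only a run of letters, and its absence says nothing about a factor.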

How the data were processed

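The authors deposited TPM for the thoracic aortas (1 column per aorta), and for each Flag ChIP-Seq library a peak list with a score, a fold enrichment (ratio over the local background), −log10 p, and −log10 q for each peak. The submitters' processing notes name cutadapt 2.3, STAR 2.7.8a, RSEM 1.3.3, Bowtie2 2.3.4.1, MACS2, and GRCm38 or mm10, without roles or order; the methods give a MACS2 q threshold of 0.01. The deposited score was not used, and the IgG libraries were not analysed here. Columns headed WT were taken as Control and KO as Prdm16SMKO. TPM are not counts, so no count test or counting interval was used; the labels give only an average number of read pairs over the libraries, so the depth of each one is unknown.

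Differences are from limma 3.58.1 (R 4.3.3), lmFit and eBayes with a trend on log2(TPM + 0.1), over 15668 genes that averaged 0.5 TPM or more; adjusted p values are Benjamini-Hochberg over all of them, called under 0.05. A fold on this scale understates low genes. The procedure was tested on simulated data. Members, lists, and tests were chosen with earlier results of these data known. Members carry no test of their own, though they are among the 15668 genes fitted and counted. From each list the called genes and the 2 with the highest mean TPM are named, also copies averaging 0.5 TPM or more and the 3 tested genes closest in pattern to the members' mean, *Eno1*, and *Eno1b*; other genes were named after their values were seen.

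Copies were found with blastn 2.17.0 among GENCODE M21 transcripts. Peaks were placed by centre against RefSeq starts (GRCm38), and sequences are from the RefSeq genome, read with pysam 0.24.0 and samtools 1.23.1. Other software was Biopython 1.88, matplotlib 3.10.9, numpy 2.4.6, pandas 2.3.3, scipy 1.17.1, and Python 3.11.15. The fit was repeated with another pseudocount (0.01 or 1), with the filter at 1 TPM or absent, after 2 rescalings, with eBayes lacking the trend, with a replicate block, and with aortas left out, and peaks were recounted with 3 other promoter windows, by summit, and at a q of 0.001. Leaving out both aortas highest in brown adipocyte markers, the step sums, and the peak background at a mean TPM of 10 were added after the data were seen. The gene counts around *Prdm16*, the motif search, and the promoter peak counts at the other genes of glucose metabolism were not among the planned results.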

Additional observations from a re-analysis of the deposited data

How the results depend on the processing

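Genes called numbered 168 (36.3% higher), 110 without a filter, 411 after median ratio rescaling (47.7% higher), 392 after quantile normalization (48.2% higher), 48 without a trend, and 91 to 141 with 1 aorta left out (91, 99, and 93 without control 1, 2, and 3, and 105 without Prdm16SMKO aorta 1). The count of further glucose metabolism genes called, 1, became 2 after quantile normalization and 0 without a filter, without a trend, with the replicate block, with any 1 aorta left out, and without both aortas highest in brown adipocyte markers. The median log2 difference of the 10 members, −0.17, was −0.0517 after median ratio rescaling and −0.0186 after quantile normalization, which move the median of all genes likewise. *Pkm*, *Gapdh*, and *Pgk1* turned to 0.0072, 0.0214, and 0.0273 after quantile normalization. Of 150 single-member values under alternatives, 139 moved by less than the spread between aortas. That count includes the settings for the filter, the trend, and the replicate block, which cannot change a member's log2 difference, so it overstates how stable the values are. The sum of *Eno1* and *Eno1b* ranged from −0.16 to 0.12. Members with a promoter peak fell to 1 in the window from 1 kb upstream to 100 bp downstream. *Prdm16* passed an adjusted p of 0.05 (limma) after median ratio rescaling (0.0232), after quantile normalization (0.0335), and without Prdm16SMKO aorta 2 (0.0398). The causes were not tested. Replicate numbers are shared in name only: correlations of same-numbered aortas' deviations were −0.0246, −0.07, and −0.00896. With the replicate block 184 genes were called, 144 of them among the 168. With 3 aortas a group, small differences of the members cannot be resolved.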

Other observations

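Genes outside glucose metabolism can be set beside the members by the root-mean-square (RMS) difference of their centered log2 values over the 6 aortas, a description that says nothing of shared function or control. Closest to *Eno1* were *Zfp979*, a zinc finger gene also on chromosome 4 (RMS 0.159), *1700086O06Rik*, a long noncoding RNA (0.178), and *Slc35g1*, a membrane transporter of the SLC35 family (0.184). *Zfp979* lies at chr4:147611937-147642513, within the 20 Mb around *Prdm16* described above. It measured 2.63, 2.9, and 1.98 TPM in controls and 0.9, 0.93, and 1.0 TPM in Prdm16SMKO aortas. No gene came as close to *Eno1b*: the nearest, the small RNAs *Gm25395* (0.708) and *Gm23444* and *Gm24497* (0.717 each, with the same TPM in every aorta), were listed at 0 in all controls. *Gm25395* measured 2.23, 7.44, and 4.36 TPM in Prdm16SMKO aortas, far less even than *Eno1b*. Closest to the mean pattern of the 10 members, which *Eno1b* dominates, were *Negr1* (0.0364), a neuronal adhesion molecule, *Cep78* (0.0589), a centrosomal protein, and *Nrp1* (0.063), a coreceptor for VEGF.

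Promoter peaks of PRDM16 in the fibroblasts were also counted at the other genes of glucose metabolism that were tested. They were found at 6 of 9 other glycolytic enzymes, 6 of 8 glucose transporters, 7 of 12 regulators with *Epas1* among them, 2 of 4 gluconeogenic enzymes, 6 of 19 genes of lactate and pyruvate, 3 of 8 of the pentose phosphate pathway, 7 of 15 of glycogen metabolism, and 10 of 14 hypoxia-induced genes, beside 43.3% of all tested genes with a RefSeq start site.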
